A study of Mus musculus with 9 samples.

Results

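Expression of 10 Kruppel-like factor (KLF) genes, Klf2, Klf3, Klf4, Klf5, Klf6, Klf7, Klf9, Klf10, Klf11 and Klf13, was described in basal keratinocytes of mouse footpad skin. The 10 genes were taken by symbol from a table of 22399 genes, and each had a row there. RNA was sequenced from 9 libraries of cells sorted as CD49f positive and CD34 negative from plantar skin of wild-type C57BL/6 mice. The 3 aged libraries came from mice of 24 months, for which the labels name no diet. The 3 high-fat diet (HFD) libraries and the 3 control libraries came from mice of 5 months, and the control mice ate a normal diet. Aged mice therefore differed from HFD and control mice in age, and whether they also differed in diet is not known. The labels do not say whether each of the 3 libraries had its own mouse. Every p-value below measures the spread between these libraries, which may be technical.

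KLF proteins are transcription factors with zinc fingers at the C-terminal end that bind GC-rich and CACCC sequences, and many members compete for the same sites. Their N-terminal parts differ and recruit either coactivators such as p300 or corepressors such as CtBP and Sin3a, so that members can activate or repress a shared target. In the epidermis Klf4 is best known for its part in building the skin barrier in suprabasal cells, and Klf5 for its expression in proliferating basal cells. Several members, Klf2, Klf4, Klf6 and Klf10 among them, are also known as early response genes whose transcripts appear soon after growth factors or stress.

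Values are the deposited FPKM, fragments per kilobase of gene scaled to the library's fragments, so levels can be compared between genes. Differences are given on the scale of log2(FPKM + 1) with the standard error from limma, and a gene is called changed at a Benjamini-Hochberg adjusted p under 0.05 over the 10367 genes whose mean reached 1 FPKM. This scale understates the change of genes near 1 FPKM. All 10 KLF genes passed that minimum, with a lowest single value of 1.34 FPKM. Estimated depth was 23.5 to 35.8 M reads per library, and a member had between 83 reads (Klf2, control) and 31333 reads (Klf4, aged) in a library.

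The libraries carried the keratin pair of basal cells, with Krt5 at 10395 to 10974 FPKM and Krt14 at 11215 to 11532 FPKM in aged, 11761 to 14406 and 13025 to 14788 FPKM in HFD, and 10316 to 13585 and 11012 to 14193 FPKM in control libraries. The suprabasal keratin gene Krt10 was also abundant, at 4748 to 6493 FPKM in aged, 3480 to 5167 in HFD and 3328 to 4461 in control libraries. Aged libraries lay above control libraries for Krt10, a difference that was not called (0.53 ± 0.17, limma adjusted p = 0.0761). Of the 8 basal markers limma called only Itga6, the gene of the sort marker CD49f, higher in HFD than in control (0.29 ± 0.07, adjusted p = 0.0168) and lower in aged than in HFD (-0.40 ± 0.07, adjusted p = 0.00575). The first of these was lost without HFD replicate 2 (0.0553), HFD replicate 3 (0.0558) or control replicate 2 (0.0648). Endothelial markers, of interest because endothelial cells express Klf2 strongly, summed over 6 genes to 0.106 to 0.203 FPKM in aged, 0.0932 to 0.165 in HFD and 0.153 to 0.338 in control libraries. Cdh5 and Cldn5 were listed at 0 in all aged and HFD libraries. Of the T cell markers, Cd3d, Cd3e, Cd3g, Trdc and Cd28 were at most 0.0588 FPKM in any library, and of this list only Thy1 was higher, at 25.7 to 33.2 FPKM in aged, 31.9 to 37.3 in HFD and 45.9 to 53.3 in control libraries. Thy1 was called lower than in control in HFD (-0.51) and in aged libraries (-0.79). The sums of 6 fibroblast markers were 3.48 to 4.45 FPKM in aged, 1.498 to 2.55 in HFD and 4.51 to 6.64 in control libraries, nearly all of it Dcn. Dcn was called lower in HFD than in control (-1.04) and higher in aged than in HFD (0.67). The sums of 6 myeloid and Langerhans markers were 3.36 to 5.74 FPKM in aged, 3.33 to 6.07 in HFD and 3.79 to 10.1 in control libraries, most of it Cd74. Melanocyte and erythroid markers summed to at most 0.897 and 0.690 FPKM in any library. In bulk libraries such as these, fewer cells of a type and less RNA per cell cannot be told apart.

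The 10 genes covered a wide range of levels. Klf4 had the highest level by far, a mean of 271 FPKM over the 9 libraries, above 99.4% of the genes in the table. It made up 61.6% to 64.4% of the summed FPKM of the 10 genes in aged, 55.3% to 59.0% in HFD and 61.0% to 66.1% in control libraries. Klf5 followed at 54.8 FPKM, Klf6 at 37.6, Klf13 at 23.0 and Klf3 at 18.3 FPKM. Klf10 had 11.9 and Klf9 11.1 FPKM, and these neighbours overlapped in each of the 3 groups. Klf11 averaged 5.64, Klf7 3.12 and Klf2 2.92 FPKM. Klf5 and Klf6 overlapped in aged libraries, where aged replicate 3 had 56.3 FPKM of Klf6, and in neither other group. Klf13 and Klf3 overlapped in HFD libraries and not in aged or control libraries, and Klf7 and Klf2 overlapped in aged libraries and not in the other groups. Each of the other steps in this order, from Klf4 to Klf5, Klf6 to Klf13, Klf3 to Klf10, Klf9 to Klf11 and Klf11 to Klf7, separated the libraries of each group.

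**Figure D1:**
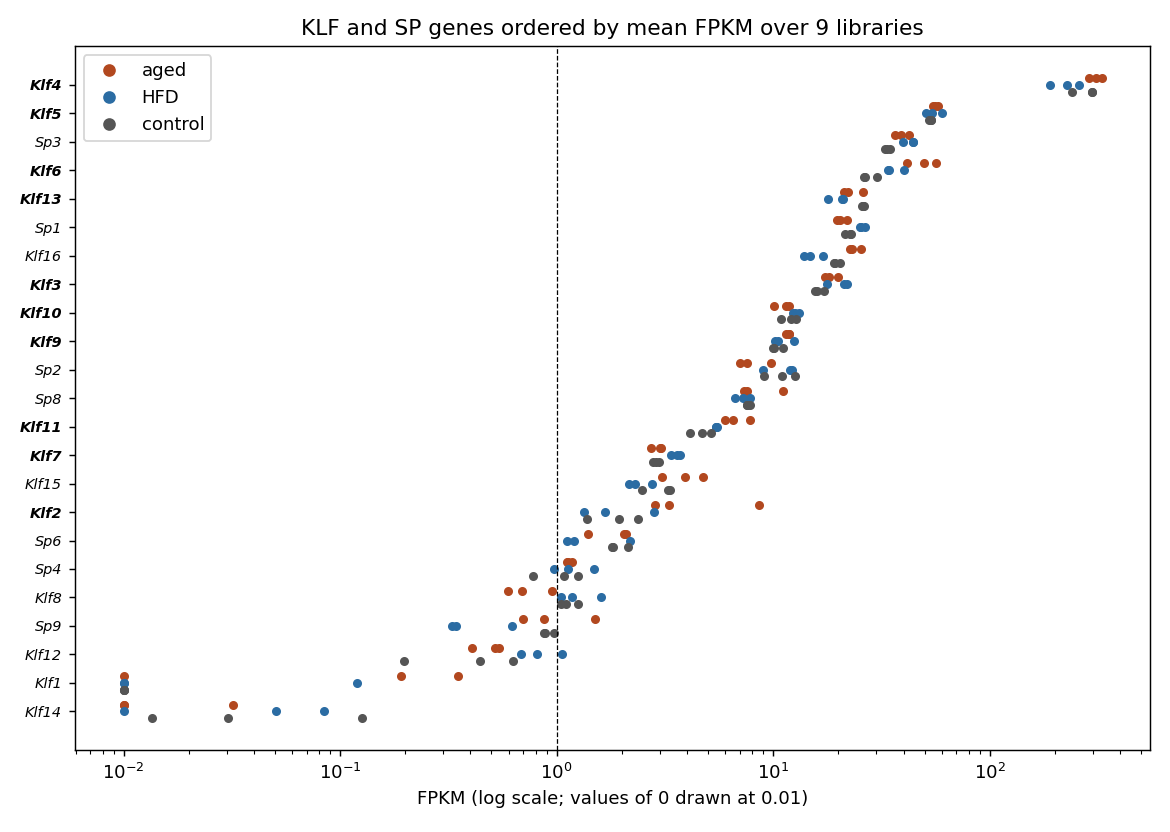
Level of KLF and SP genes in FPKM (log axis, values of 0 drawn at 0.01), ordered by the mean over 9 libraries; each point is 1 library, and the 10 genes described here are in bold. Klf4 stands alone at the top with a mean of 271 FPKM, and Klf2 at 2.92 FPKM is the lowest of the 10, with 1 aged library at 8.56 FPKM. The dashed line marks 1 FPKM.

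The group comparisons set the levels of these transcripts in aged, HFD and control libraries against each other. In aged against control libraries, Klf6 and Klf11 rose and no member fell, so that 2 of 10 were called, where 7.76% of all genes tested were called (4.01% higher and 3.74% lower). In HFD against control libraries, Klf3 and Klf6 rose and Klf13 fell, so that 3 of 10 were called, where 17.0% of all genes were called (8.26% higher and 8.76% lower). In aged against HFD libraries, Klf4 and Klf6 were higher in aged and no member was lower, so that 2 of 10 were called, where 7.99% of all genes were called (3.54% higher and 4.45% lower). The F test over the 3 groups called Klf4, Klf6, Klf11 and Klf13, 4 of 10, where 20.4% of all genes were called. With so few members, these shares give no ground to say that KLF genes changed more often than other genes. Each pair of comparisons shares 3 libraries.

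Ranges of the groups were also set side by side. Aged libraries lay wholly above control libraries for 6 members (Klf2, Klf3, Klf5, Klf6, Klf9 and Klf11) and wholly below for 0, where 13.7% of all genes lay above and 14.1% below, 27.8% in all. HFD libraries lay wholly above control for 4 members (Klf3, Klf6, Klf7 and Klf11) and wholly below for 1 (Klf13), where the shares of all genes were 20.8% and 19.6%, 40.4% in all. Aged libraries lay wholly above HFD for 5 members (Klf2, Klf4, Klf6, Klf11 and Klf13) and wholly below for 2 (Klf7 and Klf10), where the shares of all genes were 13.9% and 15.9%, 29.8% in all. The median log2 fold change over the 10 genes was 0.16 in aged against control, 0.08 in HFD against control and 0.14 in aged against HFD. The medians of all genes tested were -0.01, 0.01 and -0.00.

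**Figure D2:**
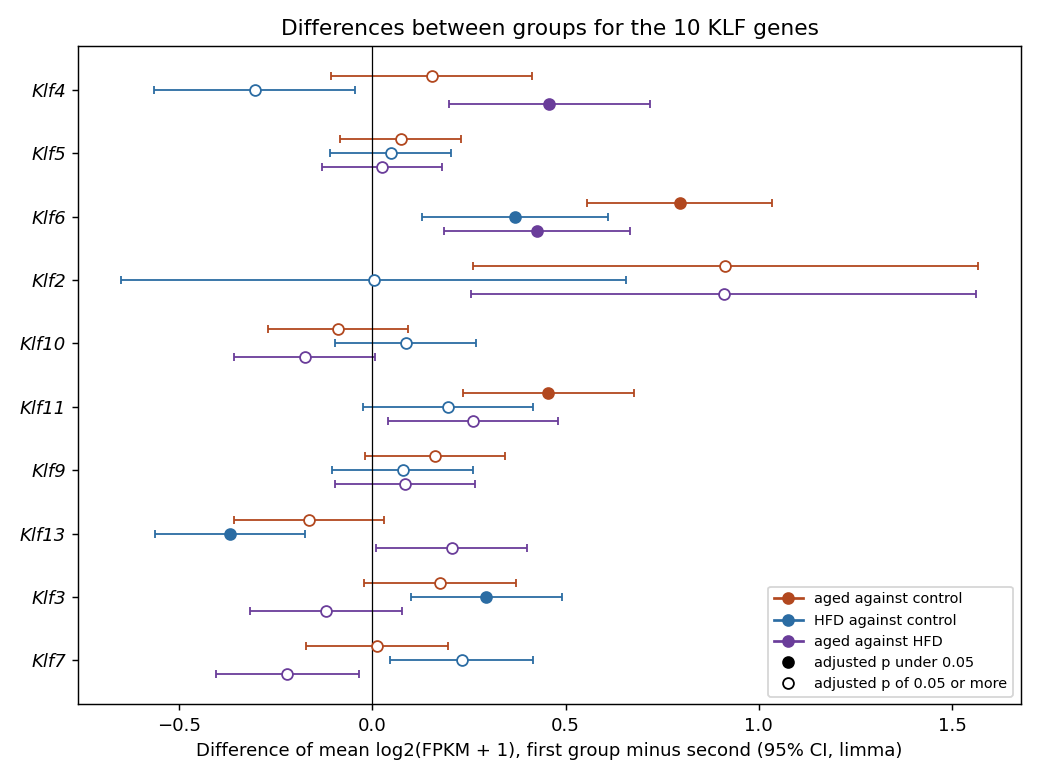
Difference of mean log2(FPKM + 1) for the 10 KLF genes in the 3 comparisons, first group minus second, with 95% confidence intervals from limma; filled points have an adjusted p under 0.05. Klf6 is filled in each of the 3 comparisons (0.79, 0.37 and 0.43), and Klf2 has large differences of 0.91 with wide intervals that start at 0.26.

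Klf4, which in mice is needed to form the skin barrier, was lowest in HFD libraries. Its level was 310, 286 and 329 FPKM in aged replicates 1 to 3, 190, 228 and 259 FPKM in HFD and 240, 296 and 298 FPKM in control. Aged libraries lay wholly above HFD libraries, whereas control libraries overlapped both other groups. Control replicate 1 sat below HFD replicate 3, and control replicates 2 and 3 sat above aged replicate 2. Klf4 was higher in aged than in HFD by 0.46 ± 0.12 on the log2 scale (limma, adjusted p = 0.0389), a ratio of mean FPKM of 1.37. In HFD against control the difference was -0.30 ± 0.12 (adjusted p = 0.0974), and in aged against control it was 0.15 ± 0.12 (adjusted p = 0.443). The call in aged against HFD was lost when any 1 of 5 libraries was left out, with adjusted p = 0.0987 without aged replicate 1, 0.0546 without aged replicate 2, 0.0868 without aged replicate 3, 0.120 without HFD replicate 1 and 0.0927 without HFD replicate 2.

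Klf5, known for its expression in dividing epithelial cells, was the steadiest member. Its level was 55.9, 54.5 and 57.6 FPKM in aged, 50.9, 54.3 and 60.2 FPKM in HFD and 53.6, 52.5 and 53.4 FPKM in control libraries. The highest of the 9 libraries was 1.18 times the lowest, the smallest such ratio among the 10 genes. The log2 differences were 0.07 ± 0.07 in aged against control (95% confidence interval -0.08 to 0.23), 0.05 ± 0.07 in HFD against control (-0.11 to 0.20) and 0.03 ± 0.07 in aged against HFD (-0.13 to 0.18). None was called, and limma's F test gave an adjusted p of 0.692.

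Klf6, an early response gene that activates genes of wound repair and growth arrest, separated the 3 groups. Its level was 41.4, 49.5 and 56.3 FPKM in aged, 33.9, 34.3 and 40.1 FPKM in HFD and 26.6, 30.1 and 26.4 FPKM in control libraries. Every aged library was above every HFD library, and every HFD library above every control library. The gene spans chr13:5861482-5870394 on the plus strand (GRCm38), and its row held 3187 to 7577 reads per library.

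In aged against control libraries Klf6 rose by 0.79 ± 0.11 (limma, adjusted p = 0.00222), a ratio of mean FPKM of 1.77. It remained called under each of the 22 other settings tried, with a log2 fold change of 0.59 to 0.91 and an adjusted p of at most 0.0161. In aged against HFD it was higher in aged by 0.43 ± 0.11 (adjusted p = 0.0377), a ratio of 1.36, and in HFD against control it rose by 0.37 ± 0.11 (adjusted p = 0.0405), a ratio of 1.303. The call in aged against HFD was lost without aged replicate 2 (adjusted p = 0.0940), aged replicate 3 (0.0913), HFD replicate 1 (0.1104) or HFD replicate 2 (0.119). The call in HFD against control was lost without any 1 of the 6 libraries compared or without aged replicate 2, with adjusted p of 0.0987, 0.0603 and 0.109 without control replicates 1, 2 and 3, 0.0670, 0.0729 and 0.128 without HFD replicates 1, 2 and 3, and 0.0535 without aged replicate 2.

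Klf7, the member closest to Klf6 in sequence and known for its part in neurons and fat cell precursors, was highest in HFD. Its level was 3.002, 2.72 and 3.02 FPKM in aged, 3.60, 3.73 and 3.36 FPKM in HFD and 2.88, 2.97 and 2.79 FPKM in control libraries. HFD libraries lay above all aged and control libraries, which overlapped each other. The differences were 0.23 ± 0.08 in HFD against control (limma, adjusted p = 0.0795) and -0.22 ± 0.08 in aged against HFD (adjusted p = 0.134), and neither was called. Exons of Klf7 overlap opposite-strand gene models over 3200 bases, and since no source used here says whether reads were counted by strand, its level is uncertain.

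Klf2, known for keeping endothelial and T cells quiescent, had the widest spread. Its level was 2.84, 3.31 and 8.56 FPKM in aged, 1.34, 1.68 and 2.81 FPKM in HFD and 1.38, 2.38 and 1.94 FPKM in control libraries. These levels rest on 174, 194 and 485 reads in aged, 88, 84 and 134 in HFD and 83, 106 and 112 in control libraries. Aged libraries lay above all others, and aged replicate 3 stood far from the other aged libraries, with an exact Poisson 95% interval for counting error alone of 7.82 to 9.36 FPKM.

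The log2 difference of Klf2 was 0.91 ± 0.30 in aged against control (95% confidence interval 0.26 to 1.57, limma adjusted p = 0.0829) and likewise 0.91 ± 0.30 in aged against HFD (adjusted p = 0.0890). Neither was called. Without aged replicate 3 the difference from control was 0.50 (adjusted p = 0.130). After a correction for GC content, which bears on Klf2 because its transcript has the highest GC share of the 10 genes (61.6%), the difference from control was 1.03 and was called (adjusted p = 0.0335), and without aged replicate 3 it was then 0.69 (0.0453). HFD and control libraries overlapped (0.00 ± 0.30, limma adjusted p = 0.995), with a 95% confidence interval of -0.65 to 0.66, so that differences within this range are not excluded.

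**Figure D3:**
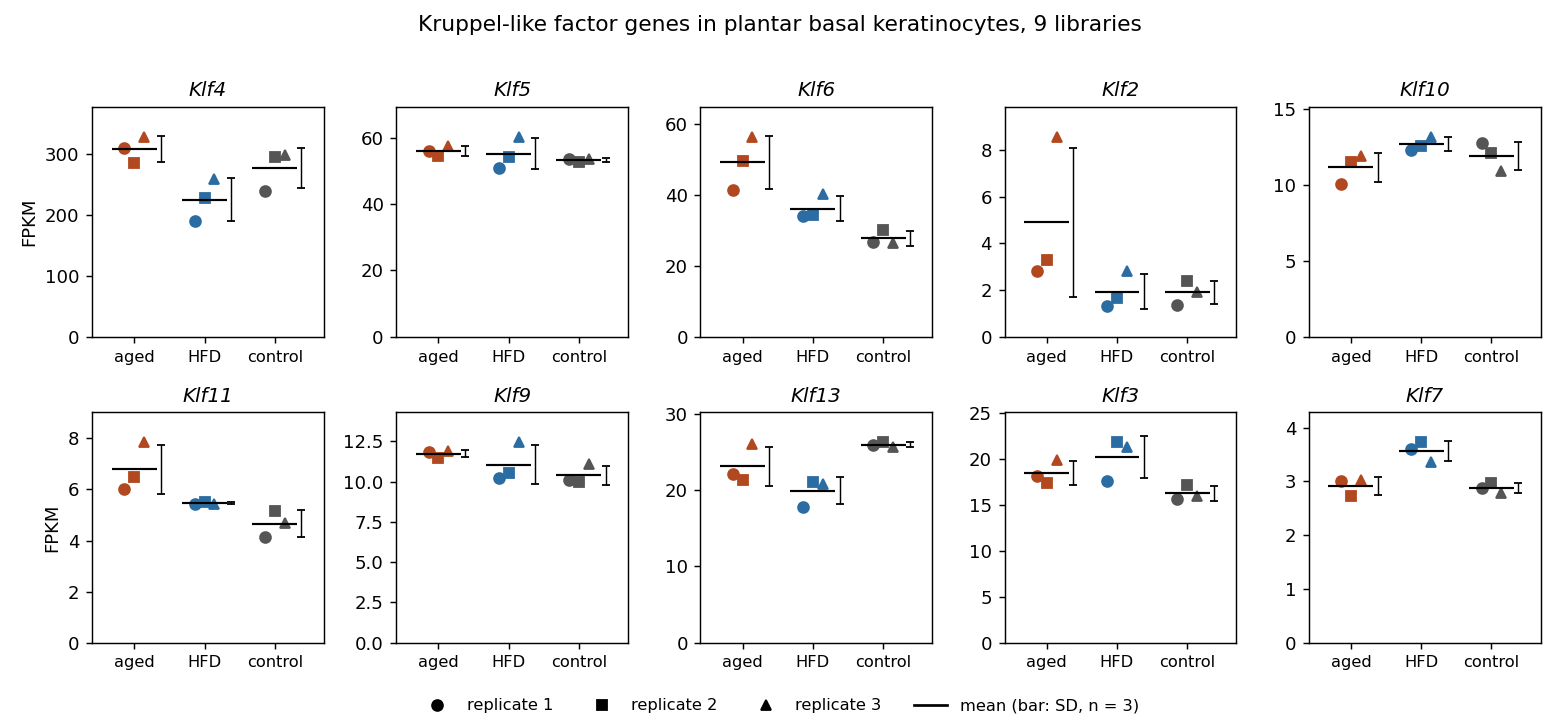
FPKM of the 10 KLF genes in each library, with aged, HFD and control from left to right in each panel; symbols mark the replicate, horizontal lines the mean and bars the SD (n = 3). Klf6 falls into 3 separate ranges of 41.4 to 56.3, 33.9 to 40.1 and 26.4 to 30.1 FPKM, and 1 aged library of Klf2 stands at 8.56 FPKM.

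Klf10 and Klf11 encode repressors first described as early genes induced by TGF-beta, and both bind the corepressor Sin3a. Klf11 had 6.02, 6.49 and 7.84 FPKM in aged, 5.43, 5.53 and 5.45 FPKM in HFD and 4.15, 5.17 and 4.68 FPKM in control libraries. As for Klf6, the 3 groups did not overlap. Klf11 rose by 0.46 ± 0.10 in aged against control (limma, adjusted p = 0.0219), a ratio of mean FPKM of 1.45. It differed by 0.20 ± 0.10 in HFD against control (adjusted p = 0.194) and by 0.26 ± 0.10 in aged against HFD (adjusted p = 0.138), neither of which was called. The call was lost without aged replicate 2 (adjusted p = 0.0505), control replicate 1 (0.0584) or control replicate 3 (0.0648), while the log2 fold change stayed between 0.36 and 0.53 when any single library was left out.

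Klf10 had 10.04, 11.5 and 11.9 FPKM in aged, 12.3, 12.6 and 13.2 FPKM in HFD and 12.8, 12.1 and 10.9 FPKM in control libraries. Aged libraries lay below HFD libraries, and control libraries overlapped both. None of its differences was called, the largest being -0.17 ± 0.08 in aged against HFD (limma, adjusted p = 0.224).

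Klf9 and Klf13 form another pair of Sin3a-binding repressors, close to each other in their zinc fingers. Klf9 is induced by glucocorticoids and driven by the circadian clock, and in human epidermis it restrains proliferation. It had 11.8, 11.5 and 11.9 FPKM in aged, 10.2, 10.5 and 12.4 FPKM in HFD and 10.1, 10.01 and 11.1 FPKM in control libraries. Aged libraries lay above control libraries, but the difference of 0.16 ± 0.08 was not called (limma, adjusted p = 0.244), nor were the others.

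Klf13, also known as a regulator of the chemokine gene Ccl5 in T cells, had 22.1, 21.3 and 26.05 FPKM in aged, 17.8, 21.1 and 20.9 FPKM in HFD and 25.96, 26.3 and 25.6 FPKM in control libraries. HFD libraries lay wholly below control libraries, and aged libraries lay above HFD and reached into the range of control. Klf13 fell by 0.37 ± 0.09 in HFD against control (limma, adjusted p = 0.0185), a ratio of mean FPKM of 0.768. It differed by -0.16 ± 0.09 in aged against control (adjusted p = 0.271) and by 0.21 ± 0.09 in aged against HFD (adjusted p = 0.183). The fall in HFD was no longer called without HFD replicate 1 (-0.29, adjusted p = 0.0692) or control replicate 2 (-0.36, adjusted p = 0.0630).

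Klf3 encodes a repressor that works through the corepressor CtBP. Its level was 18.1, 17.4 and 19.9 FPKM in aged, 17.7, 21.8 and 21.3 FPKM in HFD and 15.7, 17.2 and 16.0 FPKM in control libraries. Both aged and HFD libraries lay wholly above control libraries and overlapped each other. Klf3 rose by 0.30 ± 0.09 in HFD against control (limma, adjusted p = 0.0434), a ratio of mean FPKM of 1.25, and differed by 0.17 ± 0.09 in aged against control (adjusted p = 0.243). The call in HFD was lost without HFD replicate 2 (adjusted p = 0.146), HFD replicate 3 (0.125), control replicates 1, 2 or 3 (0.104, 0.0712 and 0.104), aged replicate 1 (0.0526) or aged replicate 2 (0.0507). Its exons overlap an opposite-strand gene model over 404 bases.

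Transcript GC content moved with the HFD comparison. Among all genes tested, the median log2 fold change in HFD against control was 0.15 in the lowest of 8 classes of equal size by GC share and -0.21 in the highest. Klf6 and Klf3, which rose in HFD, have transcript GC shares of 42.4% and 45.7%, and Klf13, which fell, has 55.5%. Klf6 and Klf3 were also not called when each library was scaled to its total FPKM (adjusted p = 0.0862 and 0.0963). After a correction for GC content in each library, Klf6 differed by 0.25 (limma, adjusted p = 0.193) and Klf3 by 0.22 (adjusted p = 0.165) in HFD against control, so that both calls were lost. Klf13 still fell, by 0.27 (adjusted p = 0.0450). In aged against control, where the medians of the same GC classes were 0.07 and -0.13, Klf6 and Klf11 remained called after the correction. With the correction and without aged replicate 3, Klf6 remained called and Klf11 did not (0.33, adjusted p = 0.0603).

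Single libraries moved several KLF genes together. Aged replicate 3 had the highest value of the aged group for 10 of 10 members, whereas it was the highest of its group for 36.9% of all genes tested. HFD replicate 1 had the lowest value of the HFD group for 9 of 10 members, against 36.9% of all genes. Control replicate 2 was highest in its group for 6 members, against 30.6% of all genes. On the first principal component of all genes tested, aged replicate 3 also stood apart at -0.41, where aged replicates 1 and 2 were at 7.61 and 7.08. Without aged replicate 3 the log2 fold changes in aged against control were 0.69 for Klf6 (limma, adjusted p = 0.00472) and 0.36 for Klf11 (adjusted p = 0.0384), and both remained called.

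**Figure D4:**
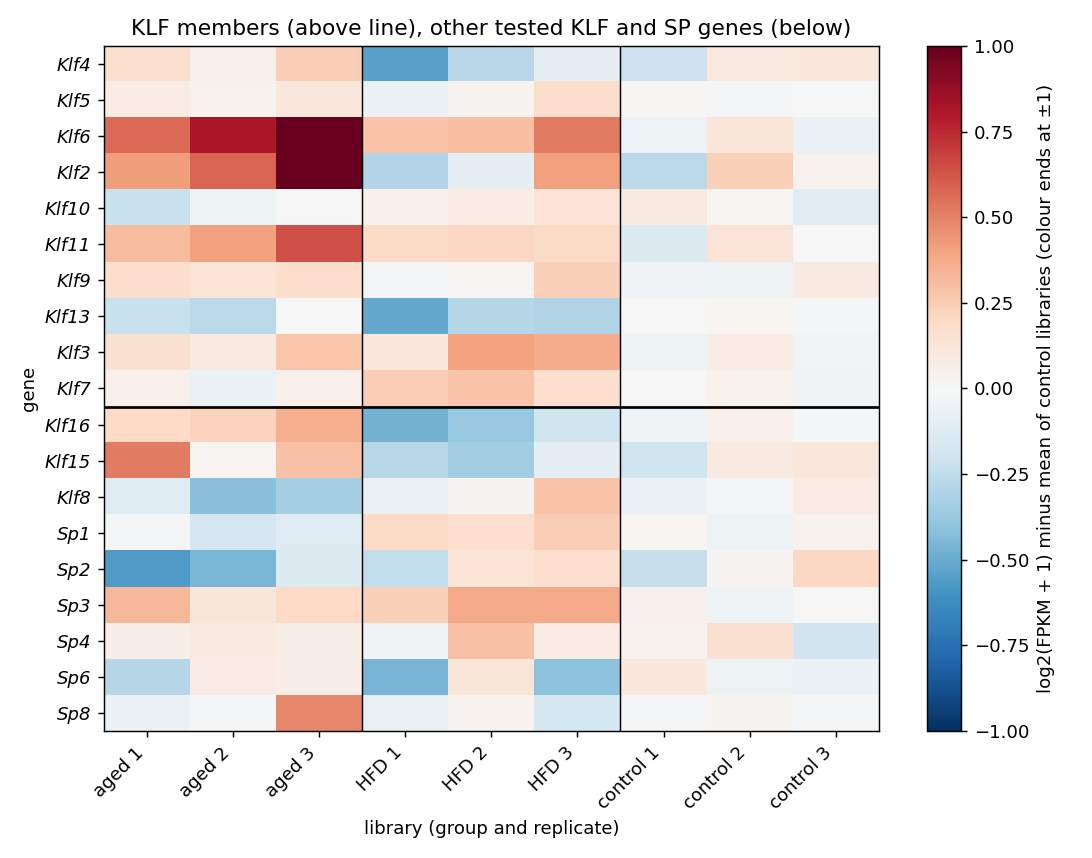
Deviation of log2(FPKM + 1) from the mean of the control libraries for each KLF gene (above the black line) and each other KLF and SP gene tested (below it), in 9 libraries with aged on the left, HFD in the middle and control on the right. Klf6 is raised in every aged and HFD library, Klf13 is low in the HFD libraries, and aged replicate 3 has the strongest red for Klf6, Klf2 and Klf11. The colour scale ends at -1 and 1.

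Among the members, Klf6 and Klf11 varied most alike over all libraries, group differences included. Over the 9 libraries, of which the 3 of a group share their condition, Pearson's r of log2(FPKM + 1) was 0.95 between Klf6 and Klf11 (Spearman's rho 0.97), and 0.77 after the group means were removed. Klf2 was close to both, with r of 0.83 to Klf6 and 0.86 to Klf11, and 0.88 and 0.85 within groups. Klf5 and Klf9 had r of 0.87, also 0.87 within groups. Klf4 and Klf7 ran opposite (r = -0.70), as did Klf7 and Klf13 (r = -0.66), but within groups these values were -0.06 and 0.33. Once the group means were removed, the pair most alike was Klf3 and Klf13 (r of 0.91, against -0.38 over all libraries), followed by Klf2 and Klf6. With 9 libraries in 3 groups these values describe the libraries and no more.

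For each member, the genes whose log2(FPKM + 1) was most like it over the 9 libraries were found among all genes tested. Among the genes most like Klf6 were Ccdc113 and Fam76a, each with r of 0.97. Klf11 was most like Fam76a (0.96), Klf6 itself (0.95) and Copz2 (0.95). Klf4 was most like Lrig3 (0.97), Zfp703 (0.96) and Ubxn6 (0.95). Klf13 was most like Fam102a, Ptprg and Fasn, each with r of 0.98, and of these Fasn encodes fatty acid synthase. Such values are the highest among all genes tested and are given as a description.

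The promoters of 8 members were read for motifs, since Klf6 and Klf11 varied together and since the early response and clock genes described below have well-known promoter elements. RefSeq entries (GRCm38.p6) matched 8 of the 10 members, all but Klf5 and Klf10. Those shown are the 3 that hold an E-box and that of Klf13, which fell in HFD, while Klf3, also called, is described by its sites alone. The stretches shown are the 250 bases before the RefSeq start, without bases inside the GENCODE gene model, in the direction of transcription. Capitals mark CACGTG, the E-box bound by CLOCK and other bHLH factors, in Klf6, Klf11 and Klf4, and CACCC, the KLF site, in Klf13. They lie at chr13:5861239-5861481 (plus strand), chr12:24651121-24651273 (plus strand), chr4:55532476-55532725 (minus strand) and chr7:63938916-63939165 (minus strand).
Klf6: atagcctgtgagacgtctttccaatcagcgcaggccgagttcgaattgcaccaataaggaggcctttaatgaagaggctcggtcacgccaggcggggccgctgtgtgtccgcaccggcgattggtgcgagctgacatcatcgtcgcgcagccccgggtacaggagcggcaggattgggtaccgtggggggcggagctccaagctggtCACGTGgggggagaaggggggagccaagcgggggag
Klf11: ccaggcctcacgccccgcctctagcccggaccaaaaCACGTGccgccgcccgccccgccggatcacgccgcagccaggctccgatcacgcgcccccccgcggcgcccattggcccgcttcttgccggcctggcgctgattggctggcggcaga
Klf4: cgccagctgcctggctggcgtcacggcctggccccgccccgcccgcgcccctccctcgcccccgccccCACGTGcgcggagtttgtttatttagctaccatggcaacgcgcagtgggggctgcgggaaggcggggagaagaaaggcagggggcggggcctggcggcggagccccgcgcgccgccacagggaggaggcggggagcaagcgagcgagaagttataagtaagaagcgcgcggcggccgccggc
Klf13: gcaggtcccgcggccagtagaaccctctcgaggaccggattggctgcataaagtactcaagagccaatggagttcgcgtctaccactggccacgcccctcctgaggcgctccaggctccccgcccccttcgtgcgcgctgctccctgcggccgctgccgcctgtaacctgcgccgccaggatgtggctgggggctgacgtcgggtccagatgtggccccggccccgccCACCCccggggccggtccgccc

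In the full 250 bases, CACGTG occurred in 3 of 8 members, Klf4, Klf6 and Klf11, where 6.02% of 32851 promoters of the same length held it. Its first base lay at position -43 from the start in Klf6, -182 in Klf4 and -214 in Klf11. The GC shares of these windows were 74.0% in Klf4, 64.8% in Klf6 and 76.8% in Klf11. The promoters set beside them were not matched for GC share, and 8 members are too few to speak of enrichment. The KLF site, searched as GGGTG on both strands, occurred in 5 of 8 members, where 52.0% of promoters held it, and Klf3 had 5 such sites. Some of these sites lie inside the GENCODE gene model, namely all those of Klf7, the Klf2 site at -19 and the Klf3 sites at -120, -111 and -48. TGANTCA, a looser form of TGA(C/G)TCA, the AP-1 site bound by FOS and JUN, occurred in 1 of 8, Klf9, and in 6.75% of promoters. The match in Klf9 reads TGAATCA, which is not TGA(C/G)TCA, and it overlaps a KLF site. TGACGTCA (the cAMP response element), the CArG box and AGAACA (a hexamer bound by the glucocorticoid receptor) occurred in 0 of 8, and in 1.55%, 1.47% and 16.1% of promoters. A match describes the letters in this window and is no evidence of binding.

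Of 16 other genes of the KLF and SP families, which share the zinc fingers and binding sites of the 10 members, 9 reached the minimum level. In HFD against control, limma called Sp3 higher and Klf16 lower. In aged against HFD it called Klf16 and Klf15 higher and Sp1 lower. In aged against control it called 0 of 9, with 4 at an unadjusted p under 0.05, and limma's voom on whole reads recovered from the FPKM also called 0. Of all genes tested, limma called 17.0% in HFD against control, 7.99% in aged against HFD and 7.76% in aged against control.

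Klf16, a repressor with a GC-rich transcript (60.4%), had 22.7, 23.2 and 25.5 FPKM in aged, 13.9, 14.8 and 16.9 FPKM in HFD and 19.1, 20.4 and 19.4 FPKM in control libraries. The 3 groups did not overlap, and HFD was the lowest. Klf16 was higher in aged than in HFD by 0.62 ± 0.08 (limma, adjusted p = 0.00233) and remained called there under all 22 other settings. In HFD against control it fell by 0.35 ± 0.08 (adjusted p = 0.0168). That call was lost after the GC correction (-0.14, adjusted p = 0.211) and without HFD replicate 1 (0.0635), HFD replicate 2 (0.0580) or control replicate 2 (0.0640).

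Sp3, a widely expressed factor that can activate or repress, had 42.5, 36.7 and 38.8 FPKM in aged, 39.8, 44.1 and 44.1 FPKM in HFD and 34.7, 32.8 and 33.5 FPKM in control libraries, and rose in HFD against control by 0.33 ± 0.07 (limma, adjusted p = 0.0137). The rise was not called after the GC correction (0.18, adjusted p = 0.117) or without HFD replicate 2 (0.0556) or control replicate 2 (0.0542). Sp1, the founding activator of the family, had 22.01, 19.7 and 20.3 FPKM in aged, 25.6, 25.1 and 26.5 FPKM in HFD and 22.6, 21.5 and 22.8 FPKM in control libraries. It was lower in aged than in HFD, by a log2 difference of -0.30 ± 0.07 (adjusted p = 0.0212), and not called without aged replicate 2 (0.0675) or HFD replicates 1, 2 or 3 (0.0555, 0.0586 and 0.0811). Klf15, a glucocorticoid-responsive regulator of metabolism, had 4.75, 3.07 and 3.90 FPKM in aged against 2.31, 2.15 and 2.76 FPKM in HFD libraries (0.51 ± 0.14, adjusted p = 0.0434), a call lost under leaving out 7 of the 9 libraries singly (aged replicates 1 and 3, each HFD replicate and control replicates 2 and 3), with adjusted p of 0.0525 to 0.135, and after the GC correction (0.0503). The others that were tested lay at mean levels of 10.04 (Sp2), 7.84 (Sp8), 1.76 (Sp6), 1.12 (Sp4) and 1.06 FPKM (Klf8). Sp9, Klf12, Klf1 and Klf14 were below a mean of 1 FPKM, and Klf17, Sp5 and Sp7 were listed at 0 in every library.

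Some cofactors through which KLF proteins act were called. Of 21 corepressors, coactivators, ubiquitin ligases and upstream kinases listed, 20 were tested, and limma called 0 in aged against control (2 at an unadjusted p under 0.05, and 1 by voom), 1 higher and 1 lower in HFD against control, and 3 higher and 1 lower in aged against HFD, where 7.76%, 17.0% and 7.99% of all genes were called. Sin3a averaged 18.5 ± 0.782, 18.5 ± 0.569 and 17.4 ± 1.05 FPKM (SD, n = 3) and Ctbp1 46.2 ± 5.66, 45.4 ± 1.69 and 52.2 ± 2.44 FPKM in aged, HFD and control libraries. Itch, a ubiquitin ligase, rose in HFD against control by 0.31 ± 0.08 (adjusted p = 0.0268), but not without HFD replicate 2 or 3 or control replicate 2 or 3 (0.0610 to 0.0860) or after the GC correction (0.166). Mef2d, a MADS-box factor through which the kinase ERK5 induces Klf2 and Klf4 in endothelial cells, fell in HFD against control by 0.30 ± 0.07 (adjusted p = 0.0198), but not without HFD replicate 1 or 2 or control replicate 2 or 3 (0.0502 to 0.0720) or after the GC correction (-0.21, adjusted p = 0.0625). Mapk7, which encodes ERK5, had 7.34, 6.65 and 6.09 FPKM in aged against 4.32, 4.45 and 5.62 FPKM in HFD libraries and was higher by 0.41 ± 0.10 (adjusted p = 0.0334), but not without aged replicate 1 or 2 or HFD replicate 1 or 2 (0.0766 to 0.115) or after the GC correction (0.35, adjusted p = 0.0758). Mef2d was also higher in aged than in HFD (0.28 ± 0.07, adjusted p = 0.0436), except when any 1 library other than aged replicate 1 was left out (0.0545 to 0.132) or the GC correction was made (0.0503). Smurf1, a ubiquitin ligase, was higher in aged than in HFD by 0.30 ± 0.08 (adjusted p = 0.0439), but not without aged replicate 1 or 3, any 1 of the HFD replicates or control replicate 3 (0.0558 to 0.130) or after the GC correction (0.0739). The histone deacetylase gene Hdac1 was lower in aged than in HFD (-0.36 ± 0.08, adjusted p = 0.0208), except without aged replicate 1 or 3 or HFD replicates 1, 2 or 3 (0.0507 to 0.0779).

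Immediate early genes, the class to which Klf2, Klf4, Klf6 and Klf10 are often assigned, moved strongly in aged libraries. Of 30 listed, all were tested, and limma called 15 higher and 0 lower in aged against control, 21 higher and 0 lower in aged against HFD, and 3 higher and 4 lower in HFD against control. The shares of all genes called were 7.76%, 7.99% and 17.0% in these comparisons. Their summed level was 2382 to 3062 FPKM in aged, 1045 to 1461 in HFD and 1076 to 1406 in control libraries, highest in aged replicate 3. Without aged replicate 3, 14 of the 30 were called higher and 1 lower in aged against control, and 18 higher and 0 lower in aged against HFD. Those called in HFD against control were Atf3, Fos and Rhob, which rose, and Jund, Hbegf, Fosl1 and Fosl2, which fell. Each of these 7 calls was lost when certain single libraries were left out. Atf3 was not called without HFD replicate 1 or 3 or control replicate 1 or 3 (0.0778 to 0.108), and Fos, Rhob, Jund, Hbegf, Fosl1 and Fosl2 were not called without control replicate 2 (0.0579 to 0.147) or without 2 or more of the other libraries. After the GC correction Jund differed by -0.39 (adjusted p = 0.0653), Fosl1 by -0.70 (0.0520), Fosl2 by -0.32 (0.0773) and Fos by 0.65 (0.0501), none of them called. Atf3, a stress-induced factor, had 161, 179 and 198 FPKM in aged, 75.2, 37.8 and 70.2 FPKM in HFD and 28.7, 43.3 and 24.6 FPKM in control libraries, and rose in aged against control by 2.47 ± 0.24 (adjusted p = 3.95e-04). Egr1, a zinc finger factor induced by growth factors, was higher in aged than in HFD by 1.35 ± 0.14 (adjusted p = 0.00166). Among the 4 KLF genes named, Klf6 rose in aged against control, Klf4 and Klf6 were higher in aged than in HFD, and Klf2 and Klf10 were called in neither. The summed level of the list was high in the group where Klf6 was high, and its part in the KLF values was not tested.

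Clock genes changed in both comparisons with control, which share their control libraries. Of 19 tested, limma called 9 higher and 2 lower in aged against control, 6 higher and 4 lower in HFD against control and 1 higher and 0 lower in aged against HFD. The shares of all genes called were 7.76%, 17.0% and 7.99% in these comparisons. Tef, a clock output factor, had 43.8, 35.1 and 43.0 FPKM in aged, 31.2, 43.9 and 38.3 FPKM in HFD and 13.2, 16.2 and 17.0 FPKM in control libraries. It rose by 1.34 ± 0.13 in aged (adjusted p = 3.95e-04) and by 1.23 ± 0.13 in HFD against control (adjusted p = 0.00106). Bhlhe40, a bHLH repressor that binds E-boxes, was the gene called in aged against HFD (0.50 ± 0.10, adjusted p = 0.0130), and it was not called there without HFD replicate 1 (0.0504). Klf9 and Klf10, which the clock is known to drive in other tissues, were called in none of these comparisons. The labels used here give no time of day at which skin was taken.

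Genes of epidermal differentiation, among them known KLF4 targets, were read next. Of 21 tested, limma called 2 higher and 0 lower in aged against control, 1 higher and 1 lower in HFD against control and 0 higher and 1 lower in aged against HFD. The shares of all genes called were 7.76%, 17.0% and 7.99%, and counts of calls so small do not set this list apart from other genes. The log2 fold change was above 0 for 18 of the 21 genes in aged against control, 10 in HFD against control and 19 in aged against HFD. Its median was 0.21, -0.00 and 0.30, where the medians of all genes tested were -0.01, 0.01 and -0.00. These genes were read in the same libraries, and their shared direction was not tested. Krt1, the keratin of the first suprabasal layer, had 2318, 1863 and 1627 FPKM in aged, 1609, 1613 and 1403 FPKM in HFD and 1179, 1436 and 1163 FPKM in control libraries, and rose in aged against control by 0.61 ± 0.13 (adjusted p = 0.0198). The other gene that rose was Calml3, a calmodulin-like gene of suprabasal cells (0.68 ± 0.16, adjusted p = 0.0301). Krt1 was not called without aged replicate 1 or 2 or control replicate 1 or 3 (0.0511 to 0.0729), and Calml3 not without aged replicate 1 or 2 or control replicate 3 (0.0683 to 0.101). Grhl1, a factor of barrier formation, fell in HFD against control by 0.55 ± 0.14 (adjusted p = 0.0217), but not without HFD replicate 2 or 3 or control replicate 1 or 2 (0.0584 to 0.0842). Tgm3, a transglutaminase of the cornified envelope, rose in HFD against control by 0.53 ± 0.09 (adjusted p = 0.00521) and was lower in aged than in HFD (-0.50 ± 0.09, adjusted p = 0.00970). The summed level of the 22 genes listed was 8620 to 11683 FPKM in aged, 6757 to 9312 in HFD and 6989 to 8834 in control libraries. Krt10 made up the largest part of this sum in each library. The part of differentiating cells in the Klf4 values was not tested.

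The pathways that induce members were read in the same way. Of all genes tested, 7.76% were called in aged against control, 17.0% in HFD against control and 7.99% in aged against HFD. Of 10 glucocorticoid response genes tested, limma called 1 higher and 0 lower in aged against control, 0 higher and 1 lower in HFD against control, and 2 higher and 0 lower in aged against HFD. Errfi1, a feedback inhibitor of the EGF receptor, rose in aged against control by 0.59 ± 0.13 (adjusted p = 0.0219), but not without aged replicate 2 (0.0536) or control replicate 3 (0.0824). It was also higher in aged than in HFD (0.80 ± 0.13, adjusted p = 0.00467), and so was Cdkn1c, an inhibitor of cyclin-dependent kinases (0.49 ± 0.13, adjusted p = 0.0449). Cdkn1c had 1.198 to 1.62 FPKM in aged, 0.525 to 0.949 in HFD and 0.773 to 1.056 in control libraries. Its mean was under 1 FPKM in HFD (0.733) and in control (0.94), so it passed the minimum only through the aged libraries. Without aged replicate 2 or aged replicate 3 it fell below that minimum and was not tested. Cdkn1c was not called without aged replicate 1, any 1 of the HFD replicates or any 1 of the control replicates (0.0511 to 0.141), or after the GC correction (0.0760). Fkbp5, a chaperone of the glucocorticoid receptor, fell in HFD against control by 0.46 ± 0.12 (adjusted p = 0.0266), but not without HFD replicate 1 or control replicate 2 or 3 (0.0753 to 0.0975). Of 17 TGF-beta pathway genes tested, limma called 0 higher and 2 lower in aged against control, 1 higher and 3 lower in HFD against control, and 1 higher and 0 lower in aged against HFD. Those that fell in HFD were Id1, Id2 and Id3, HLH inhibitors of differentiation that answer mainly to BMP signals, and those that fell in aged were Id2 and Id3. The gene that rose in HFD was Tgif1, a homeodomain repressor of TGF-beta responses, by 0.26 ± 0.08 (adjusted p = 0.0460), but not without any 1 of the 6 libraries compared or aged replicate 2 (0.0546 to 0.136) or after the GC correction (0.17, adjusted p = 0.151). Id1 was the gene higher in aged than in HFD (0.62 ± 0.12, adjusted p = 0.00970). Id2 had 4.69, 4.66 and 4.92 FPKM in aged, 5.23, 6.33 and 6.69 FPKM in HFD and 8.35, 9.99 and 8.99 FPKM in control libraries, and fell in aged against control by 0.81 ± 0.10 (adjusted p = 0.00113).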

How the data were processed

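RNA was measured in 9 sorted-cell libraries (3 per group), made with a stranded mRNA kit per the labels' protocols. The deposited FPKM were analysed as the authors gave them. The submitters' processing notes name the build mm10 and the tools DESeq2 1.30.0, HTSeq 0.11.2, STAR 2.6.0c and cutadapt. The tool that made the FPKM, the gene lengths and the use of strand are not given in the sources used here. Single-cell data of the series were not analysed here.

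Log2(FPKM + 1) of 10367 genes whose mean reached 1 FPKM was fitted with limma 3.58.1 (R 4.3.3) in 1 model over the 9 libraries, with empirical Bayes variances that follow the mean level (6 residual and 5.50 prior degrees of freedom), two-sided, and Benjamini-Hochberg adjustment over all genes. The fit was also run on simulated data with values drawn independently for each library. The outcome of that run is not given here and bears on none of the calls above. GENCODE M21 (GRCm38) matched 22285 of 22399 gene ids and gave lengths, GC shares and coordinates. FPKM times length gave whole reads, within 0.02, for 97.5% to 98.2% of values up to 30 reads, and this gave the depth estimates. Intervals on reads cover counting error only. limma's voom on these reads, added after seeing the data, called 1903 genes in HFD against control, 993 in aged against control and 939 in aged against HFD, where limma on FPKM called 1764, 804 and 828.

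Members and gene lists (other KLF and SP genes, cofactors, immediate early, clock, differentiation, glucocorticoid and TGF-beta genes, cell type markers) were chosen with earlier results of these data known. All members were named. Of each list, up to 3 genes with the smallest p per comparison could be named, and the text gives only some of those that were called. A listed gene that is not named may therefore have been called. Where few genes were called, the remaining ones (Atf3 in HFD against control, Smurf1, Tgif1, Fos, Rhob, Fosl2 and the marker Itga6) were named after their values were seen. A gene among those most like Klf6 is not reported here. Alternatives were another pseudocount (0.1), filter, normalization, variance model, library weights, only the 6 libraries compared, a replicate block, a GC correction (loess of span 0.5 and degree 1), both together, and each library left out.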

Additional observations from a re-analysis of the deposited data

How the results depend on the processing

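Over the 22 other settings, 199, 201 and 179 member values in aged against control, aged against HFD and HFD against control kept their direction and side of the threshold. The numbers that lost a call were 6, 14 and 28, those that gained one 4, 2 and 2, and those that changed sign 9, 1 and 9. No value that changed sign had been called.

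In HFD against control, the GC correction left 1161 genes and 1 member called. It left 0 members with the replicate block (limma, 4 at an unadjusted p under 0.05) and 1 without aged replicate 3, while no filter and scaling to total FPKM left 1 each. That scaling gave 597 genes higher and 1165 lower (856 and 908 as reported), and 360 and 507 in aged against control (416 and 388). In aged against control, no filter left 1 member, and fitting only the 6 libraries left 461 genes and 1 member. In aged against HFD, no filter left 541 genes and 0 members (limma, 6 at an unadjusted p under 0.05), fitting only the 6 libraries 1, and the GC correction without aged replicate 3 left 0 (5 at an unadjusted p under 0.05). The F test called 1 member with no filter and 2 with the GC correction without aged replicate 3. No filter tested more genes, and fitting 6 libraries used fewer. For the others the cause was not tested.

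Leaving out 1 library gave 749 to 2109 genes and 0 to 3 members in HFD against control, 300 to 1247 and 1 to 2 in aged against control, 379 to 782 and 0 to 2 in aged against HFD, and 1167 to 2474 and 1 to 4 in the F test. The member counts of 0 came without control replicate 2 in HFD against control, and without aged replicate 2, aged replicate 3, HFD replicate 1 or HFD replicate 2 in aged against HFD. The fewest genes remained without control replicate 2, without aged replicate 1, and, in aged against HFD and the F test, without HFD replicate 2.

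The differences that changed sign were small. For HFD against control, Klf2 had -0.00364 with a pseudocount of 0.1, -0.0287 with total FPKM, -0.0281 with library weights and -0.0195 with voom, and Klf5 had -0.00177 with total FPKM. With 1 library left out, Klf2 ranged from -0.198 (without HFD replicate 3) to 0.153, Klf5 from -0.0165 to 0.103 and Klf9 from -0.00291 to 0.129. For aged against control, Klf7 had -0.0129 with quantile normalization, -0.0130 with total FPKM, -0.00927 with library weights, -0.0403 with the GC correction with or without the block, and -0.0775 with it without aged replicate 3. With 1 library left out, it ranged from -0.00815 to 0.0477. For aged against HFD, Klf5 ranged from -0.0297 to 0.0893 with 1 library left out.

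The labels do not say whether the replicate numbers pair the libraries, and the values below do not settle it. Deviations of same-numbered libraries correlated at 0.060, 0.067 and 0.274 for HFD and control, 0.121, -0.052 and 0.185 for aged and control, and 0.105, 0.001 and 0.212 for aged and HFD. Replicate 3 of each group correlated best with replicate 3 of each other group, but not every library correlated best with its own number. With the replicate block, 2061, 1137, 987 and 2500 genes and 4, 3, 3 and 5 members were called in HFD against control, aged against control, aged against HFD and the F test. The block added Klf4 in HFD against control (adjusted p = 0.0389) and Klf2 in aged against control (0.02005) and aged against HFD (0.0216). With the GC correction and the block together, Klf2 was called in aged against control (0.0113) and aged against HFD (0.0292). In aged against control, the GC correction without aged replicate 3 called Klf2 and Klf6, not Klf11. The voom fit and the GC correction without aged replicate 3 were chosen after seeing the data. Depth limits Klf2 most, with as few as 83 reads in a library.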
